A study of Homo sapiens with 19 samples.

Results

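Short frame-keeping cassette exons are exons of 28 to 75 nt that a transcript can carry or skip and whose length is a multiple of 3. They were chosen by length, annotation and reads of the skipped form, and the rule uses no difference between samples. The class itself was chosen with earlier results of these data known. Each exon needed an annotated junction on either side and an annotated junction that skips it between the same outer ends. It also needed at least 1 skipping read over the 19 libraries. By this rule there were 2435 exons in 1965 genes, among 26775 cassette exons of up to 1000 nt. For 817 of them, in 706 genes, the reads sufficed for a test in the knockdown libraries. A further 938 had under 20 reads per library on average, 338 were included in more than 98% of the pooled reads, 311 in less than 2%, and 31 were not annotated as a single exon.

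The libraries came from 3 established human cell lines and were depleted of ribosomal RNA. A375 is a melanoma line, of which total, nuclear and cytoplasmic RNA were sequenced. HEK293 is an embryonic kidney line. HUES66 is an embryonic stem cell line, sequenced once as wild type with no doxycycline in its labels, and 14 times after 1 ug/ml doxycycline. These 14 libraries, controls included, all received the drug, which in this study switches on the RNA-cutting enzyme Cas13d. Their groups are a control with the genotype WT in the labels, an RBFOX2 total knockdown (total KD), and knockdowns of the RBFOX2 isoforms N-short (N-short KD) and N-long (N-long KD). At 48 hr and at 96 hr there was 1 library of each of the 4 groups. At 24 hr the labels give a replicate 1 set of total, N-short and N-long KD without a control, and a replicate 2 set of control, N-short and N-long KD. The counts were thus 3 control, 3 total KD, 4 N-short KD and 4 N-long KD libraries. No label says that they came from separate cultures, so p-values measure the spread between these libraries only.

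Within a coding sequence, a cassette exon whose length is a multiple of 3 adds or removes whole codons. Unless it holds a stop codon, it leaves the reading frame of the exons after it as it was. Exons this short are bridged with difficulty by the splicing machinery and often depend on proteins bound in the introns beside them. RBFOX proteins are such regulators. They bind UGCAUG, and in general a site in the intron after an exon favours its inclusion, while a site before or within it favours skipping.

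The exons tested had a median length of 57 nt, against 105 nt for all 6715 cassette exons tested. A coding annotation, meaning a transcript that codes over the whole exon, was present for 78.8% of them and for 61% of all. An exon that codes over only a part of its length does not count. Their median inclusion was 48.9%, where inclusion is the percent of reads that join the exon to its neighbours out of these plus the reads that skip it. Over all exons tested this median was 72.6%. Between 10% and 90% inclusion lay 45.7% of the short frame-keeping exons and 37.2% of all, so the short exons were more often a mixture of both forms. Median introns were 2215 nt before and 2193 nt after the short exons, close to the 2408 and 2299 nt of all exons.

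The sequences below show which exons the knockdown results turn on, taken from GENCODE 29 transcripts with GRCh38 coordinates. In the first group the exon, on the transcribed strand, is followed by 100 bases of the intron after it, where a GENCODE transcript covers that intron. Capitals mark TGCATG, the DNA form of the RBFOX binding word. They are shown because their inclusion was lower in total KD and a GENCODE transcript covers the intron bases. The APP window is chr21:25997260-25997416 on the minus strand, with an exon of 57 nt. The APBB2 window is chr4:40934977-40935139 on the minus strand, with an exon of 63 nt. For PTBP1 it is chr19:805513-805669 on the plus strand, with an exon of 57 nt. For PCBP2, which holds no such word, it is chr12:53467805-53467943 on the plus strand, with an exon of 39 nt.
APP: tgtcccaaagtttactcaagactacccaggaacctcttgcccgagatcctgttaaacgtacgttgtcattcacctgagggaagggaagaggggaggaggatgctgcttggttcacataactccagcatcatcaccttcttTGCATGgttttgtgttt
APBB2: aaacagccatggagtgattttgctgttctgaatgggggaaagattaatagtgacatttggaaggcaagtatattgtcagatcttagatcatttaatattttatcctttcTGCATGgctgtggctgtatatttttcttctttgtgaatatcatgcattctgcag
PTBP1: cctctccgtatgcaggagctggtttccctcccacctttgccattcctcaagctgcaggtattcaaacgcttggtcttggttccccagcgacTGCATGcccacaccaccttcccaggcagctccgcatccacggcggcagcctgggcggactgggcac
PCBP2: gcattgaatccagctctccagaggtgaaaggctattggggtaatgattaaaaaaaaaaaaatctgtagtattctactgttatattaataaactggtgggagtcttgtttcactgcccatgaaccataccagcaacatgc

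In TGCATG searches of the transcribed strand of those 100 bases, 52 of 1357 covered exons of all lengths held the word (3.8%), and 9 of 162 covered short frame-keeping exons (5.6%). It was present after 5 of the 6 covered exons that fell in total KD. These were APP, where it starts at base 84 of the intron, APBB2 (base 47), PTBP1 (base 35) and 2 overlapping forms of the NF2 exon (bases 62 and 47, the same genomic word). Within the exons, GCATG was found in 35 of 817 short frame-keeping exons (4.3%), in 667 of all 6715 (9.9%) and in 0 of the 24 that fell. These counts describe letters in a window and say nothing of binding.

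A second group of sequences shows exons annotated as coding with large changes in knockdown or between cell lines. The exon is in capitals, between 15 bases of each neighbouring exon in lower case, as joined in the messenger RNA. ENAH is at chr1:225504991-225505053 and CLSTN1 at chr1:9737498-9737554, both on the minus strand. EPB41 is at chr1:29060422-29060484 on the plus strand, and MSI1 at chr12:120351344-120351400 on the minus strand. LRRFIP1 at chr2:237751200-237751271 on the plus strand and LRRFIP2 at chr3:37091467-37091538 on the minus strand are shown together because these 2 genes carry related exons of 72 nt, with 57 of 72 bases the same (79.2%). NUMA1 at chr11:72012401-72012442 on the minus strand is shown for its difference between cell lines.
ENAH: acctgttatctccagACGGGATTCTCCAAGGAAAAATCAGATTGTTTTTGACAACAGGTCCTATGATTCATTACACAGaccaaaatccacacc
CLSTN1: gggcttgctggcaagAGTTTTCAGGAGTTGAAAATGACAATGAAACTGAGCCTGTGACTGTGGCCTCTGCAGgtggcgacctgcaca
EPB41: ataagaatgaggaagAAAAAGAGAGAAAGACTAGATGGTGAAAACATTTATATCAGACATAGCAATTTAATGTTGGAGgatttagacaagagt
MSI1: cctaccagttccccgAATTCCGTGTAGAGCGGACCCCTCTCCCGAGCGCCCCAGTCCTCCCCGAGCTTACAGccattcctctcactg
LRRFIP1: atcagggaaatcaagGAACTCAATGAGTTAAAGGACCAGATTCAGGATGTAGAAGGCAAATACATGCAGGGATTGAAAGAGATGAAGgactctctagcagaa
LRRFIP2: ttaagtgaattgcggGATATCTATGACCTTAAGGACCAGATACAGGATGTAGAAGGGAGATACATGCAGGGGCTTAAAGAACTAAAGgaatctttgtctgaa
NUMA1: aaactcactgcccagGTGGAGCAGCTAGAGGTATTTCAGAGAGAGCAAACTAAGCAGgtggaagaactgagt

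As a check of the knockdowns, reads on RBFOX2 junctions were 121 to 128 per 1000000 annotated junction reads in the 3 controls and 122 in wild-type HUES66. They were 49.2, 80.3 and 77.4 in total KD at 24, 48 and 96 hr, and 74.0 to 89.4 in N-long KD. In N-short KD they ranged from 109 to 123. The libraries held 6499183 to 27937149 junction reads each. Summed stem cell markers were 1783 to 2361 such reads in the HUES66 libraries and at most 0.75 in A375 and HEK293.

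The first question was which of these exons respond to loss of RBFOX2. In total KD 27 of 817 short frame-keeping exons changed, 24 with lower and 3 with higher inclusion (edgeR quasi-likelihood test, Benjamini-Hochberg adjusted p under 0.05). Over all cassette exons tested the share called was 1.31%, 1.01% lower and 0.298% higher, against 3.3% of the short frame-keeping exons. Of the exons of the same lengths that shift the frame, 3 of 816 were called (0.368%), and of microexons of 3 to 27 nt 16 of 171 (9.36%). Frame-keeping exons of 76 nt and more gave 22 calls of 2194 (1%). Whether these shares differ was not tested. At an unadjusted p under 0.05 there were 100 short frame-keeping exons, and 7.76% of all. In 21 of the 24 exons that fell, and in all 3 that rose, the total KD libraries did not overlap with the control libraries. The exceptions were PCBP2, GNAS and HNRNPM. All 27 exons were called from these same libraries, so this is a description, and the share over all exons was not computed. The 24 hr replicate 1 libraries lack a control but were part of the fit, so their values are a description. Here too the share over all exons was not computed. Among them the total KD library lay below the N-short KD library for 24 of these 24 exons, by 0.61 points for HNRNPM. It lay above it by 9.94 points for PPP3CB, 1.67 for PLAA and 0.65 for APLP2.

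Of 40 exons of actin, membrane skeleton and adhesion genes, the longest of the gene lists, 6 were lower and 0 higher. Among all 817 short frame-keeping exons 2.94% were lower and 0.367% higher, the shares beside which each list count in total KD stands. ENAH, an Ena/VASP protein that promotes growth of actin filaments, had a 63 nt exon included at 76.8%, 83.9% and 72.1% in the controls of 24, 48 and 96 hr. In total KD it was 46.8%, 49.6% and 47.96%. All total KD libraries lay below all controls. The mean difference within library sets was -29.2 points ± 7.16 (SD, n = 2 sets), a log2 odds ratio of -1.82 ± 0.145 (SE; edgeR adjusted p = 6.54e-12).

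MPRIP, which ties myosin phosphatase to actin, is outside the list. Its 63 nt exon is not annotated as coding over its whole length. The exon was at 97.0%, 97.7% and 93.6% in the controls and at 71.7%, 65.8% and 66.7% in total KD. The groups did not overlap. Its log2 odds ratio was -3.61 ± 0.311 (SE; edgeR adjusted p = 4.2e-11). The 63 nt exon of EPB41, protein 4.1 that joins spectrin and actin to the membrane, was at 72.2%, 65.8% and 83.3% in the controls. In total KD it stood at 35.1%, 13.0% and 28.9%, the largest mean difference of all 27 exons, -53.6 points ± 1.16 (SD, n = 2 sets; edgeR adjusted p = 2.9e-10).

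The EPB41 exon is on the list too, and its other called exons ranged from rarely used to nearly always included. MYO18A, an unconventional myosin, had a 45 nt exon at 86.9% ± 10.2 (SD, n = 3) in the controls and 51.8% ± 6.44 (n = 3) in total KD. UTRN, utrophin, which links actin to the dystroglycan complex, had a 39 nt exon at 95.8% ± 2.43 and 82.7% ± 10.1, with the 48 hr total KD library lowest at 71.1%. MYH10, the heavy chain of non-muscle myosin IIB, had a rarely used 30 nt exon at 6.87%, 10.8% and 7.19% in the controls. It was at 2.78%, 3.14% and 1.61% in total KD, below every control. LMO7, a junction protein, fell from 75.2% ± 17.7 to 26.5% ± 25.1 for a 30 nt exon, with few reads (20.6 per library on average). MAGI1, a scaffold of tight junctions outside the list, had a 36 nt exon at 50%, 50% and 47.25% in the controls and at 14.9%, 18.1% and 22.6% in total KD (edgeR adjusted p = 7.22e-06).

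**Figure D1:**
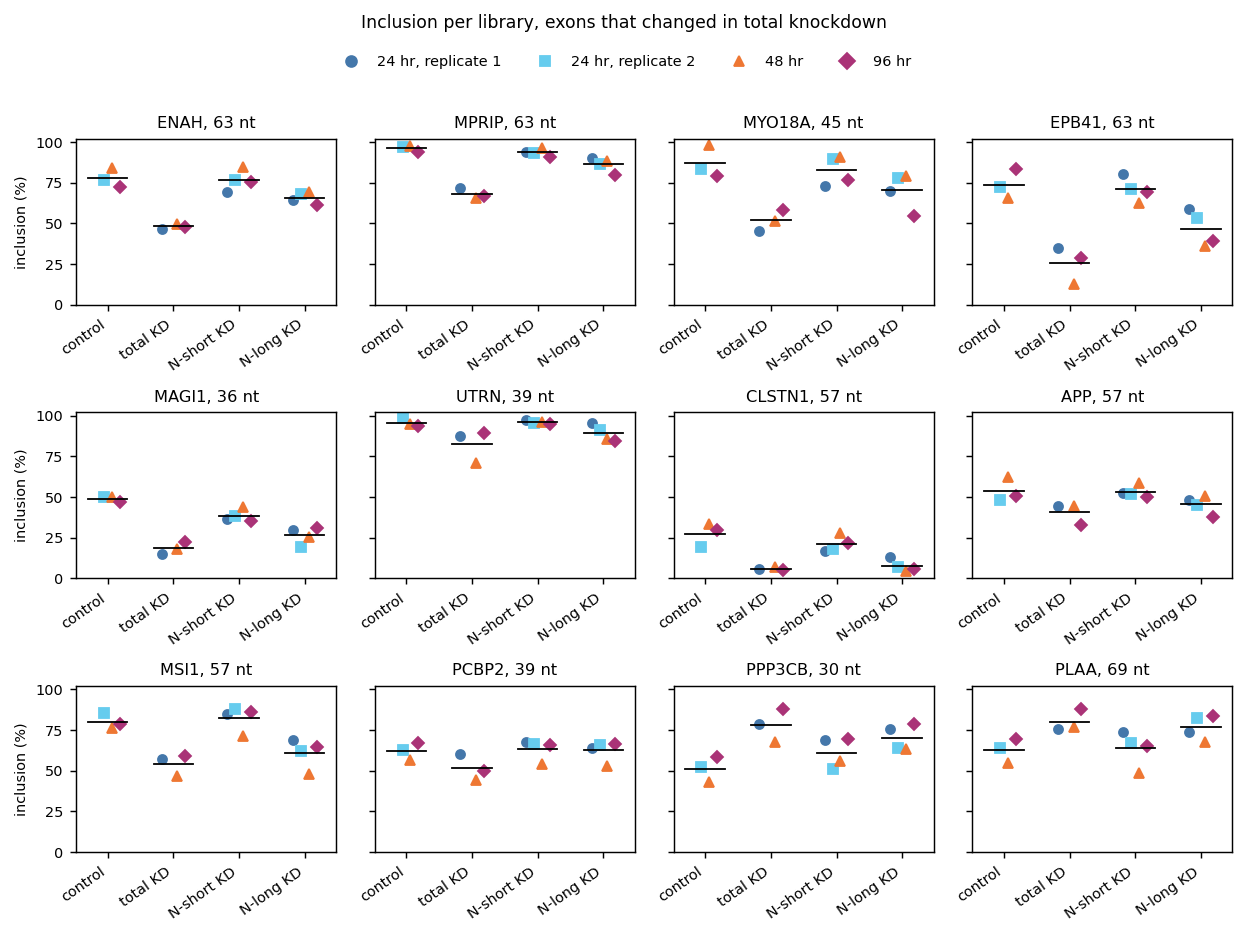
Inclusion in percent (vertical axis) of 12 short frame-keeping exons in each of the 14 doxycycline-treated HUES66 libraries, by knockdown group. Colour and shape give the library set and the line the group mean; ENAH stands at 46.8% to 49.6% in total KD and at 72.1% to 83.9% in control, while PPP3CB and PLAA are higher in total KD.

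Genes of secretory and endocytic traffic gave 3 lower exons and 1 higher of 26 tested. CLSTN1, calsyntenin 1, which connects cargo vesicles to kinesin, had a 57 nt exon at 19.05%, 33.6% and 29.5% in the controls. In total KD it was at 5.75%, 6.94% and 5.36%, below every control and every N-short KD library (edgeR adjusted p = 1.05e-07). APP, the amyloid precursor, had a 57 nt exon at 48.2%, 62.3% and 50.7% in the controls and at 44.4%, 44.4% and 33.0% in total KD. The difference within sets was -17.7 points ± 0.13 (SD, n = 2 sets; edgeR adjusted p = 4.99e-08). APLP2, the paralogue of APP, went the other way with a 36 nt exon, from 14.1% ± 2.05 to 22.3% ± 4.83 (n = 3 each; edgeR adjusted p = 0.0033). NBEA, a protein of neuronal membrane traffic, was the third lower exon, at 79.0% ± 10.0 in control and 32.0% ± 12.6 in total KD for 63 nt.

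Kinases and signalling genes gave 3 lower exons and 1 higher of 21. Merlin, the product of the tumour suppressor NF2, had overlapping exon forms of 45 and 60 nt that share 1 start. Neither form is annotated as coding over its whole length, and coding over a part was not looked at. The 45 nt form went from 62.7% ± 2.33 to 41.1% ± 11.1 and the 60 nt form from 49.1% ± 2.98 to 27.6% ± 8.37 (SD, n = 3 each). They share skipping reads, so they count as 1 event. APBB2, an adaptor that binds the tail of APP, had a 63 nt exon at 59.5% ± 12.9 in control and 28.3% ± 2.86 in total KD. PPP3CB, a catalytic subunit of calcineurin, rose with a 30 nt exon from 52.2%, 42.9% and 58.2% in control to 78.7%, 67.6% and 88.1% in total KD (edgeR adjusted p = 0.0085). Of the exons of the RNA binding list, 1 of 28 was lower and 0 higher. That was PTBP1, the splicing repressor of pyrimidine tracts, with a 57 nt exon at 66.1% ± 5.49 and 57.1% ± 3.69. None of 24 exons of transcription and chromatin genes and none of 12 exons of microtubule and cell division genes passed. The share called was 3.3% of the 817 and 1.31% of all exons. At such shares lists this short hold few calls or none, so the counts of 0 do not set these lists apart.

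On none of these lists did the median log2 odds ratio of all members exceed 0.319 in size. It was 0.089 for the 40 actin exons and -0.319 for the 11 exons of known RBFOX-responsive genes, beside 0.006 for all 817 and 0.064 for all 6715. In the RBFOX-responsive list 4 of 11 were lower and 0 higher. These were ENAH, EPB41, CLSTN1 and MYO18A. That list was written with earlier results of these data known, so its count is no independent check.

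Further exons among the 24 belong to genes on none of the lists and are described without a denominator. MSI1, Musashi 1, a translational repressor of neural stem cells, had a 57 nt exon at 85.2%, 76.4% and 78.7% in control and at 57.1%, 46.7% and 59.0% in total KD (edgeR adjusted p = 0.000215). PCBP2, a poly(C)-binding protein, had the best covered of the called exons, with 1540 reads per library for 39 nt. It stood at 62.6%, 56.4% and 67.1% in control and at 60.6%, 44.4% and 49.96% in total KD. The 24 hr total KD library lay among the controls and the other total KD libraries below them (edgeR adjusted p = 7.22e-06). HNRNPM, a splicing factor, was at 97.8% ± 0.38 in control and 96.2% ± 2.21 in total KD (n = 3 each), with 1256 reads per library on average. GNAS, the stimulatory G protein alpha subunit, whose 45 nt exon separates its long and short forms, was at 50.3% ± 5.42 and 42.6% ± 7.04.

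PROM1, the stem cell surface protein CD133, had a 69 nt exon with no skipping read in any control, N-short KD or N-long KD library. In total KD it was included at 91.9%, 86.9% and 74.2%. LRRFIP1, a regulator of nucleic acid sensing, fell from 33.9% ± 3.04 to 17.8% ± 3.26 (edgeR adjusted p = 0.0032). The related exon of LRRFIP2 was at 18.3% ± 6.51 in control and 4.94% ± 1.50 in total KD and did not pass the threshold (edgeR adjusted p = 0.0552). It is named here for its likeness to the LRRFIP1 exon, after its values were seen. UAP1, an enzyme that makes UDP-N-acetylglucosamine, had overlapping forms of 51 and 48 nt. The 51 nt form was at 60.2% ± 4.73 in control and 35.2% ± 7.01 in total KD. ZRANB2, a zinc finger splicing protein, fell from 62.3% ± 4.85 to 50.1% ± 0.52 with a 75 nt exon not annotated as coding over its whole length. PLAA, which acts in ubiquitin-dependent turnover, rose with a 69 nt exon from 62.7% ± 7.34 to 80.2% ± 6.68.

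Without the 48 hr total KD library 11 exons were called and without the 96 hr control 18, none of them with higher inclusion. In either case PPP3CB, PLAA, APLP2, NBEA, APBB2, the 51 nt form of UAP1, PROM1 and PTBP1 did not pass. The exons of LRRFIP1, UTRN and ZRANB2 and the 45 nt form of NF2 did not pass without the 48 hr total KD library. With limma on log2 ratios 3 exons passed, and with DESeq2 12, all of them lower.

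The second question was what the isoform knockdowns do. In N-short KD 0 of 817 short frame-keeping exons passed, and 0.0149% of all exons. At an unadjusted p under 0.05 there were 45 (edgeR), against 4.29% of all, and DESeq2 and limma also called 0. Among 200 exons altered by 2 log2 units in simulated N-short KD data, edgeR found 35% and limma 10%. Most such changes were thus missed, so a count of 0 does not show that no exon changed. In N-long KD 10 exons in 9 genes passed, all lower, where the share called over all exons was 0.477%, 0.432% lower and 0.0447% higher. These 10 were the exons of CLSTN1, EPB41, MYH10, MPRIP, APP, ENAH, MAGI1, MSI1 and both forms of NF2, with mean differences between -31.1 and -4.92 points. At an unadjusted p under 0.05 there were 72, against 5.51% of all. Leaving out single libraries ended the call of MSI1 in 4 of 14 cases, of the 45 nt form of NF2 in 3 and of MAGI1 in 2, and of none of CLSTN1, EPB41, MYH10, MPRIP, APP and ENAH. RBFOX2 junction reads were themselves lower in N-long KD than in N-short KD, as given above, and the part of that level in the difference between the isoform knockdowns was not tested.

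CLSTN1 had the largest fitted change in N-long KD. Its exon was at 13.2%, 6.79%, 4.43% and 6.04% in the 4 N-long KD libraries (24 hr replicates 1 and 2, 48 hr, 96 hr), and at 17.1%, 18.3%, 27.7% and 21.6% in N-short KD. Every N-long KD library lay below every control and N-short KD library. The log2 odds ratio against control was -2.27 ± 0.279 (SE; edgeR adjusted p = 2.03e-06), beside -2.74 ± 0.324 in total KD. EPB41 was at 59.1%, 53.0%, 35.9% and 39.1% in N-long KD and at 80.3%, 71.4%, 62.7% and 69.5% in N-short KD, with no overlap between them. Its log2 odds ratio of -1.92 ± 0.279 in N-long KD stood beside -3.33 ± 0.309 in total KD, comparisons that share the controls.

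ENAH was included at 64.2%, 68.1%, 69.5% and 61.2% in N-long KD, between the libraries of total KD and control. MPRIP was at 90.2%, 86.8%, 88.1% and 79.7%, and MSI1 at 69.2%, 62.1%, 48.05% and 64.5%. MAGI1 went to 26.4% ± 5.15 (SD, n = 4), beside 38.7% ± 3.77 (n = 4) in N-short KD and 49.1% ± 1.59 (n = 3) in control. MAGI1 and NF2 were not among the exons called in N-long against N-short KD. MYH10 went to 3.38% ± 0.44 in N-long KD. The 45 nt form of NF2 was at 41.7% ± 10.0 in N-long KD, beside 41.1% ± 11.1 in total KD. In N-long KD, PCBP2 was at 62.5% ± 6.22, beside 62.1% ± 5.35 in control and 51.6% ± 8.25 in total KD. The 51 nt form of UAP1 was at 52.1% ± 4.53, and PROM1 at 100%.

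**Figure D2:**
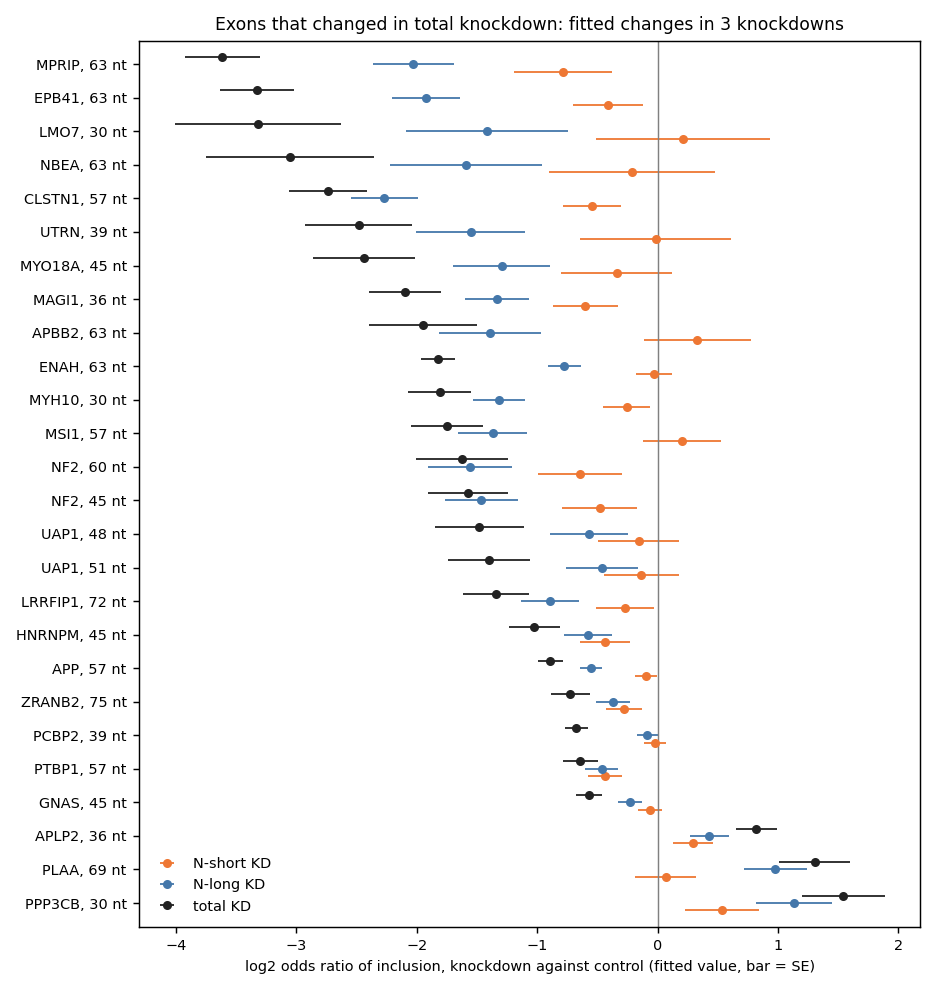
Fitted log2 odds ratio of inclusion against control (horizontal axis, bar = SE) for 26 of the 27 exons that changed in total KD, in total, N-long and N-short KD, ordered by total KD. The N-long value lies near the total KD value for CLSTN1 and NF2 and near 0 for PCBP2; PROM1 is not drawn because without a skipping read outside total KD its other values cannot be fitted.

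A direct comparison of the isoforms gave 8 of 817 exons lower in N-long than in N-short KD and 0 higher, where 0.372% of all exons were called, 0.328% lower and 0.0447% higher. These 8 were CLSTN1, EPB41, ENAH, MSI1, APP, MYH10, MPRIP and APBB2. At an unadjusted p under 0.05 there were 67, against 5.02% of all. APBB2 was at 30.0%, 39.1%, 44.2% and 27.6% in N-long KD and 55.6%, 75%, 68.8% and 62.5% in N-short KD. It came to -30.2 points ± 5.99 (SD, n = 4 sets; edgeR adjusted p = 0.0227), a call lost in 6 of 14 cases when 1 library was left out and in 11 of 25 alternatives in all, with adjusted p up to 0.474. MPRIP lost its call in 9 of 26. EPB41 differed by -24.2 points ± 5.41 (edgeR adjusted p = 0.000267) and MSI1 with -21.7 points ± 4.14 (edgeR adjusted p = 0.000267). For MSI1, the N-short KD libraries stood at 85.2%, 87.9%, 71.2% and 86.3%, 1 of them apart from the others. No exon of this comparison passed with limma or DESeq2.

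The authors' deposited tables, which give 1 rMATS comparison per knockdown and time, had short frame-keeping exons lower in total KD at all times. At an adjusted p under 0.05 and a difference of at least 0.1 on the scale of 0 to 1, the authors' deposited tables listed 7 lower and 0 higher at 24 hr, 0.586% of those matched, beside 0.0818% of all exons in that table. At 48 hr the authors' deposited table listed 13 lower and 1 higher (1.27%, beside 0.195% of all), and at 96 hr 9 lower and 1 higher (0.933%, beside 0.13%). For N-short KD the authors' deposited tables listed 0 at each time, and for N-long KD 1, 1 and 2 lower (0.0849%, 0.0908% and 0.18%, beside 0.0126%, 0.036% and 0.0206% of all). For ENAH the authors' deposited tables gave a difference, control minus total KD, of 0.294 at 24 hr, 0.345 at 48 hr and 0.253 at 96 hr.

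The third question was how inclusion moves with time after doxycycline. Of 817 short frame-keeping exons 184 differed between the 96 hr and 48 hr libraries, 121 higher and 63 lower at 96 hr (edgeR adjusted p under 0.05). The share called was 16.7% over all exons, 8.59% higher and 8.07% lower. Of frame-shifting exons of the same lengths 126 of 816 were called (15.4%), 75 higher and 51 lower. In 172 of the 184 exons all 4 pairs of libraries with the same knockdown differed in the same direction. The exons were called from these same pairs, so this count is a description, and the share over all exons was not computed. Over the 184 exons the median size of the mean difference was 11.1 points. The median log2 odds ratio was 0.22 over the 817 short frame-keeping exons and 0.092 over all 6715.

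Time cannot be told apart from library set here, since each time after 24 hr is 1 set of 4 libraries. The 2 sets at 24 hr show how much sets of equal time differ. In a comparison added after the time values were seen, 18 short frame-keeping exons were higher in the replicate 1 set than in the replicate 2 set and 0 lower (edgeR adjusted p under 0.05), where 1.1% of all exons were called, 0.715% higher and 0.387% lower. Among the 121 exons that were higher at 96 hr than at 48 hr, the replicate 1 set at 24 hr was above the replicate 2 set for 104 (86%), with a median of 4.71 points. That share was 61.2% over the 817 exons and 50.1% over all exons. These exons differed between the replicate 1 set at 24 hr and the 96 hr set by a median of 0.03 points, while they rose from 48 to 96 hr by 10.8. For the 63 exons lower at 96 hr, replicate 1 was higher for 24 (38.1%).

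FAM13B shows this order of sets. Its 66 nt exon was at 45.5% to 52.9% in the 24 hr replicate 1 set and at 13.3% to 25.0% in the replicate 2 set. At 48 hr it was at 20.0%, 16.7%, 10.5% and 12.5% in control, total, N-short and N-long KD, and at 96 hr at 53.3%, 52.6%, 48.1% and 43.5%. The 96 hr and 48 hr libraries did not overlap, and they differed by 34.5 points ± 2.92 (SD, n = 4 pairs; edgeR adjusted p = 0.000731). Wild-type HUES66, at 42.0%, was nearer to the 96 hr and 24 hr replicate 1 libraries.

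HMMR, the hyaluronan receptor that also acts at the mitotic spindle, had a 48 nt exon at 40.9%, 36.1%, 39.3% and 31.9% at 48 hr. At 96 hr it was at 62.1%, 69.0%, 59.6% and 65.8% (edgeR adjusted p = 3.46e-08). It was at 59.6% to 69.1% in the 24 hr replicate 1 set and 46.9% to 53.2% in the replicate 2 set. MDM4, an inhibitor of p53, was at 34.5%, 58.0%, 47.5% and 33.3% at 48 hr and at 70.6%, 74.2%, 73.5% and 80.9% at 96 hr for a 39 nt exon. The 24 hr replicate 1 set lay above both, at 89.8% to 90.7%. CASK, a synaptic scaffold kinase, had a 69 nt exon at 52.4% to 73.3% at 48 hr and 91.1% to 93.5% at 96 hr. It was at 76.1% to 94.2% at 24 hr in both sets, so here the 48 hr set stood alone (edgeR adjusted p = 4.68e-08).

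Other exons were highest at 48 hr. RBM41, an RNA-binding protein of the minor spliceosome, had a 72 nt exon at 75%, 72.6%, 76% and 80.3% at 48 hr. It was at 37.1%, 42.1%, 42.4% and 50% at 96 hr and at 44.4% to 55.4% in the 24 hr sets, so the 48 hr libraries lay above all others (edgeR adjusted p = 4.98e-08). SEC16A, which organizes sites of export from the endoplasmic reticulum, was at 56.0% to 65.4% at 48 hr and 17.4% to 36.4% at 96 hr for a 60 nt exon. DHX34, a helicase of nonsense-mediated decay, differed by -34.5 points ± 16.0 (SD, n = 4 pairs), and SLC25A29, a mitochondrial carrier, by -27.8 points ± 9.16. INO80E, QRICH1 and IGSF3 had higher inclusion at 96 hr, by 26.7, 24.9 and 24.3 points. NBEA differed by -27.5 points ± 18.2, with total KD and N-long KD lowest in that set at 17.6% and 25.0%. Leaving out single libraries ended the call of INO80E and of NBEA in 4 of 14 cases and of QRICH1 in 2. It ended the call of none of FAM13B, HMMR, MDM4, CASK, RBM41, SEC16A, DHX34, SLC25A29 and IGSF3. MDM4 lost its call with the upstream junction alone and with the lower of both inclusion junctions.

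**Figure D3:**
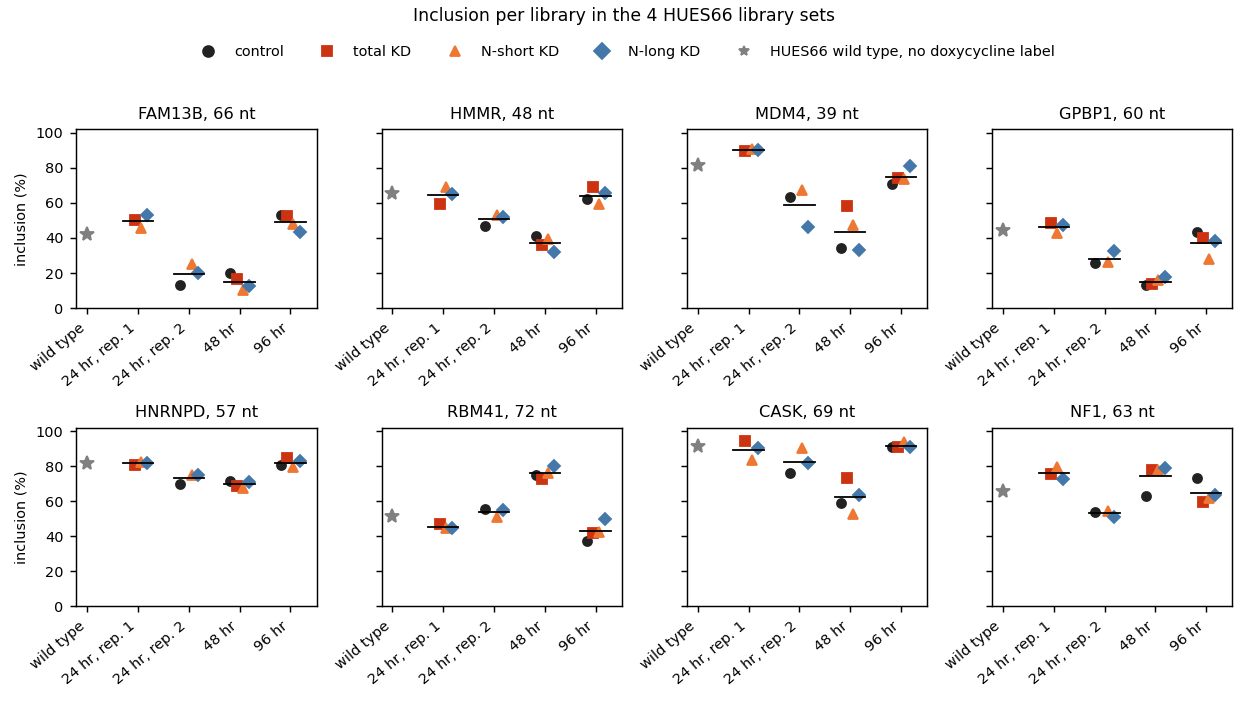
Inclusion in percent (vertical axis) of 8 short frame-keeping exons in wild-type HUES66 and in the 4 library sets, with 1 symbol per library and a line at the set mean. For FAM13B and HMMR the 24 hr replicate 1 and 96 hr sets lie above the 24 hr replicate 2 and 48 hr sets; for RBM41 the 48 hr set lies alone and for NF1 the 24 hr replicate 2 set is lowest.

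Among RNA binding genes 6 exons were higher and 5 lower at 96 hr, of 28. Among all 817 short frame-keeping exons 14.8% were higher and 7.71% lower, and over all exons 8.59% and 8.07%. Whether any list differs from these shares was not tested. HNRNPA2B1, whose 36 nt exon separates the A2 and B1 proteins, was at 16.9%, 19.5%, 16.5% and 17.4% at 48 hr and at 24.7%, 26.6%, 24.3% and 24.2% at 96 hr. All 4 libraries at 96 hr lay above those at 48 hr, by 7.41 points ± 0.5 (SD, n = 4 pairs; edgeR adjusted p = 2.1e-10). The 24 hr replicate 1 libraries were at 24.4% to 24.7%. HNRNPD, the AU-rich element binding protein AUF1, had a 57 nt exon that was higher by 12.2 points ± 2.83 at 96 hr. TIA1, a protein of stress granules, had a 33 nt exon that was higher by 14.5 points and a 66 nt exon that differed by -8.48. SRRM1, a splicing coactivator, differed by -14.2 points ± 2.76 for a 42 nt exon.

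Transcription and chromatin genes gave 7 higher and 2 lower of 24 exons. KMT2D, a histone methyltransferase, was at 7.69%, 5.26%, 4.76% and 4.23% at 48 hr and at 24.4%, 26.6%, 25.3% and 25.0% at 96 hr for a 48 nt exon. The libraries of the 2 times did not overlap (edgeR adjusted p = 6.24e-08). ARID1B, a subunit of chromatin remodelling complexes, was higher by 19.7 points. SMARCA1, an ATPase of such complexes, differed by -11.2 points. Kinases and signalling genes gave 6 higher and 0 lower of 21, among them SOS1, the Ras exchange factor, by 24.2 points ± 9.15. Traffic genes were divided, with 5 higher and 6 lower of 26, and so were the actin genes, with 3 and 5 of 40. TPD52L2, a vesicle protein of the traffic list, differed by 18.0 points ± 0.46. Microtubule and cell division genes gave 2 higher of 12, MARK2 and ANLN.

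Several exons that fell in total KD also differed between 48 and 96 hr. APP differed by -11.1 points ± 1.54 at 96 hr (edgeR adjusted p = 1.21e-07) and PCBP2 higher by 10.3 points ± 3.32 (edgeR adjusted p = 1.44e-07). In the fit each knockdown is compared within its library set. NF1, the Ras GTPase-activating protein neurofibromin, whose 63 nt exon adds to its catalytic domain, differed between the 24 hr sets. It was at 72.6% to 79.6% in replicate 1 and 50.8% to 54.5% in replicate 2 (edgeR adjusted p = 0.0322).

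The fourth question was how inclusion differs between cell lines. With 1 library per line there was no replicate check, and values carry 95% Wilson intervals, which cover counting error only. The junction files of A375 list scaffold and spike-in sequences, 73 to 92 sequence names in all, and those of HEK293 and HUES66 only 25, so the A375 values may have been made with another reference. By at least 20 points, 58 of 1134 short frame-keeping exons with enough reads differed between A375 and HEK293, 44 higher in A375, where the share was 2.92% of all exons, 1.92% higher. Between A375 and wild-type HUES66 98 of 1215 differed, 56 higher in A375, beside 3.55% of all, 1.89% higher and 1.66% lower. Between HEK293 and HUES66 97 of 1322 differed, 33 higher in HEK293, beside 3.39% of all, 1.3% higher and 2.09% lower. Intervals did not overlap for 35, 87 and 82 of these.

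NUMA1, the spindle pole protein NuMA, included its 42 nt exon at 74.3% (interval 65.4% to 81.6%, 109 reads) in A375. In HEK293 it was at 22.2% (13.2% to 34.9%) and in HUES66 at 1.24% (0.34% to 4.42%, 161 reads), so the 3 lines stood apart. FOXM1, a forkhead factor of the cell cycle, followed the same order for a 45 nt exon, at 96.9%, 61.3% and 20.6%. So did MTA1, a subunit of the NuRD complex, at 98.1%, 67.3% and 20.7% for 36 nt. LRRFIP2 was at 84.8%, 66.7% and 12.5%, and its relative LRRFIP1 at 6.45%, 11.7% and 36.1%. For both, the intervals of A375 and HEK293 overlapped and lay apart from that of HUES66, which had the lowest value for LRRFIP2 and the highest for LRRFIP1.

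TBC1D23, a tether of vesicles at the Golgi, was at 92% in A375, 40.4% in HEK293 and 16.1% in HUES66. PPHLN1, a subunit of the HUSH silencing complex, was at 92.1%, 47.8% and 32.0%. SULF2, a heparan sulfate sulfatase, was at 99.4%, 91.7% and 30.8%, where the intervals of A375 and HEK293 did not overlap with that of HUES66. MAP2K7, a kinase that activates JNK, was at 75% (59.8% to 85.8%) in A375 and 0.79% (0.14% to 4.36%) in HUES66. LRP8, a receptor for reelin, was at 86.0% (43 reads) in A375 and at 0 of 91 reads in HUES66, an interval up to 4.05%. MICAL3, RSRP1, CD46 and MADD were also higher in A375 than in HEK293, by 60.8, 54.7, 52.3 and 42.0 points, and UAP1 (51 nt) and MGRN1 (45 nt) differed by -48.05 and -42.74 points.

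ENAH, MPRIP, ESYT2 and CASK were highest in the stem cells. The ENAH exon was at 2.56% (1.00% to 6.41%) in A375, 31.6% in HEK293 and 74.98% (72.3% to 77.5%) in HUES66, so its level in total KD, 46.8% to 49.6%, was above that of both other lines. MPRIP was at 36.9% and 41.01% in A375 and HEK293, with overlapping intervals, and at 95.2% in HUES66. ESYT2, a tether between endoplasmic reticulum and plasma membrane, was at 8.51%, 12.6% and 76%. EXOC1, an exocyst subunit, was at 16.2% in A375 and 87.9% in HUES66. CASK was at 42.9%, 26.8% and 91.4%, and SEPT6, a septin, at 7.41% in HEK293 and 66.7% in HUES66. MDM4 was low in HEK293 alone, at 17.6% against 72.2% in A375 and 81.9% in HUES66. TMEM63B, a membrane channel, was the largest difference between HEK293 and HUES66, at 82.3% and 12.7% for 39 nt. ADAM15, a membrane metalloprotease, had 2 exons of 72 nt that were at 4.35% each in HEK293 and at 71.0% and 59.1% in HUES66, with 22 to 31 reads. TANC2, a postsynaptic scaffold, was at 9.68% and 66.7%.

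The exons that fell in total KD were not of 1 kind across lines. CLSTN1 was at 93.4% in A375, 69.6% in HEK293 and 26.6% in wild-type HUES66, the reverse order of ENAH. PCBP2 was at 88.5%, 77.6% and 65.6%, and APBB2 at 96.6%, 73.3% (15 reads) and 65.1%. EPB41 was at 88.2% (17 reads), 79.7% and 77.2%, with overlapping intervals. NBEA had 5 reads in A375 and 3 in HEK293, too few for a value, and was at 67.3% in HUES66. RBFOX2 junction reads were 80.2 in A375 on the scale above, 101 in HEK293 and 122 in HUES66, and the part of that level in these differences was not tested.

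**Figure D4:**
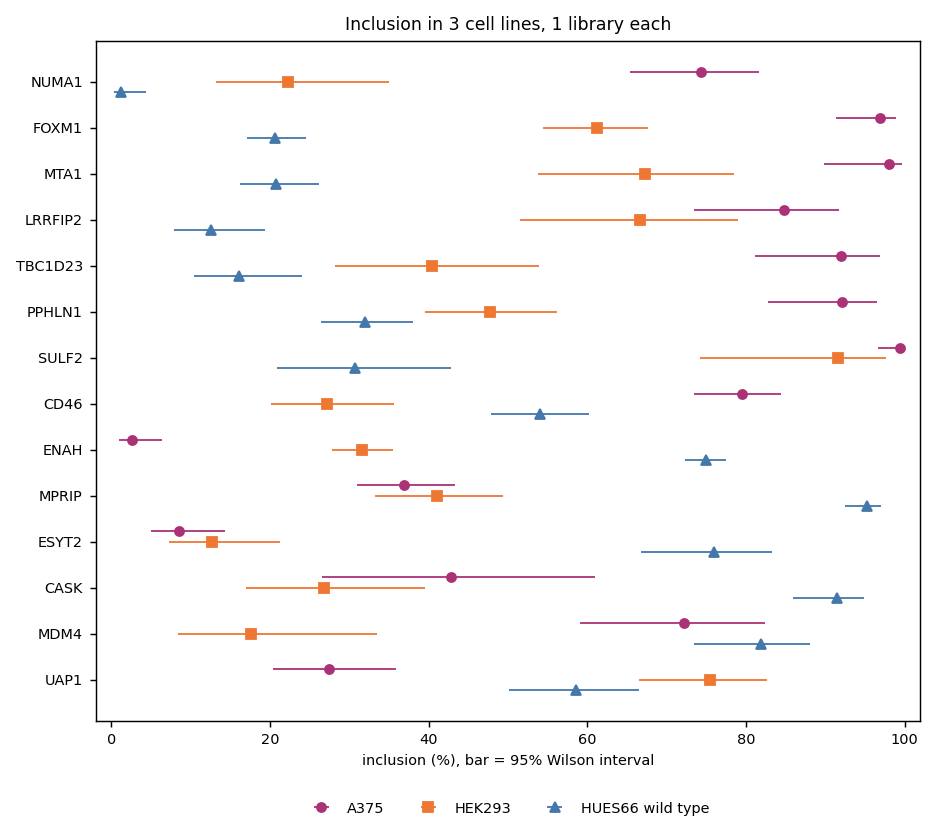
Inclusion in percent (horizontal axis, bar = 95% Wilson interval) of 14 short frame-keeping exons in A375, HEK293 and wild-type HUES66, 1 library each. NUMA1, FOXM1 and MTA1 run from HUES66 up to A375; ENAH, MPRIP and ESYT2 are highest in HUES66; MDM4 is low in HEK293 alone.

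The last comparison was nuclear against cytoplasmic RNA of A375, 1 library each. The purity of the fractions was not tested, so nucleus and cytoplasm below stand for the libraries labelled so. Of 1038 short frame-keeping exons 14 differed by at least 20 points, 9 higher in the nucleus and 5 lower, beside 1.72% of all exons (1.13% higher, 0.59% lower), and for 8 the intervals did not overlap. The median size of the difference was 1.79 points, beside 1.42 over all exons. SNHG1, a noncoding host gene of small nucleolar RNAs, had the largest difference. Its 51 nt exon was at 82.3% (72.4% to 89.1%) in the nucleus, 35.1% (28.3% to 42.5%) in the cytoplasm and 73.3% in total RNA. ASPH, which encodes aspartate beta-hydroxylase and shorter calcium-binding proteins of the endoplasmic reticulum, went the other way with a 45 nt exon. It was at 4.19% (2.22% to 7.76%, 215 reads) in the nucleus and 48.5% (43.0% to 54.1%, 307 reads) in the cytoplasm, with total RNA at 12.3%. For all 8 exons the total RNA value lay between those of the fractions.

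NUMB, an inhibitor of Notch, had a 33 nt exon at 20.8% in the nucleus and 56.3% in the cytoplasm, but with 24 nuclear reads. TBX3, a T-box repressor, was at 80.0% and 48.2% for 60 nt, and RUNX1, a transcription factor of blood formation, at 93.8% and 70.1% for 39 nt. OPA1, the dynamin of mitochondrial fusion, was at 37.5% and 12.6% for 54 nt. LRP8 was at 78.3% and 100%, and GLYR1, a chromatin protein, at 57.1% and 77.9%. Among exons that fell in total KD, ENAH was at 2.75% and 0.74%, CLSTN1 at 79.4% and 84.3%, PCBP2 at 91.1% and 88.5%, and MPRIP at 45.2% and 41.5%.

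**Figure D5:**
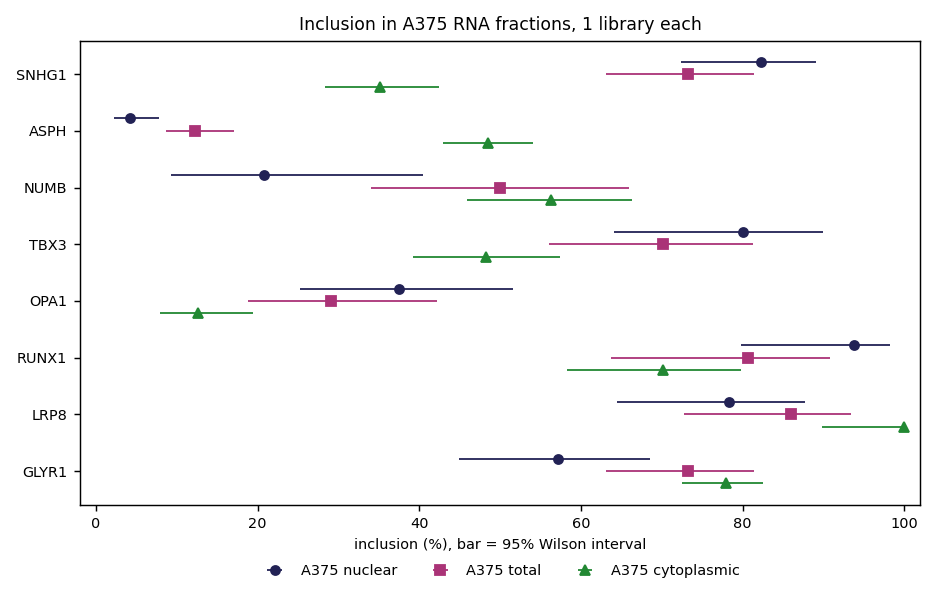
Inclusion in percent (horizontal axis, bar = 95% Wilson interval) of the 8 short frame-keeping exons that differ most between nuclear and cytoplasmic A375 RNA, with total RNA beside them. SNHG1 stands at 82.3% in the nucleus and 35.1% in the cytoplasm, and ASPH at 4.19% and 48.5%; total RNA lies between the fractions for each exon.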

How the data were processed

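Junction files of 19 RNA libraries held counts of reads per splice junction, deposited by the authors, who used STAR 2.7.1, SAMtools 1.9 and hg38 per the submitters' processing notes. Exons were annotated from GENCODE 29. Inclusion reads were the rounded mean of both inclusion junctions, and of several skipping junctions the most read one was used. An edgeR 4.0.16 quasi-likelihood fit (R 4.3.3) of inclusion and skipping counts covered the 6715 exons averaging 20 or more reads per library, with pooled inclusion of 2% to 98%, with library and library set terms and Benjamini-Hochberg adjustment over all. Odds ratios are given as log2 values. Same-set libraries deviated together (median residual r 0.193 over 18 pairs, and -0.031 over 55 pairs of different sets). The fit was tested on simulated data, in which 200 of 6715 exons were altered by 2 log2 units. Every exon was given the same chosen spread, so the shares found belong to that setting. The share found by edgeR was 27.5% for total KD, 35% for N-short KD, 38.5% for N-long KD and 41.5% for time. For limma these shares were 0%, 10%, 0% and 8.5%. False calls were 1, 2, 3 and 4 for edgeR and 0 for limma. Single libraries were compared at 20 reads and 20 points. Intervals cover counting error only.

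The authors' deposited rMATS tables gave inclusion differences (other scale, 0 to 1, control minus knockdown) and p-values, matched by exon alone. Their 69 per-library columns were not used. Named exons are those past the adjusted p of 0.05 that moved alike in every library set, ordered by mean difference: the first 20 in total KD, 15 in each other knockdown comparison, 12 in time, and 10 per pair of lines or fractions among those past 20 points with intervals apart. Called exons of the gene lists are named too, and the other called exons of total KD were named after their values were seen. Members and lists were chosen with earlier results of these data known. The comparison of the 24 hr sets was added after the time values were seen. The motif search was planned for 250 nt of intron and covered 100 nt after the exon, where a GENCODE transcript holds it. Alternatives were DESeq2 1.42.0, limma 3.58.1 (pseudocount 0.5), other read minimums, single junctions, wild type as control, no block and each library left out.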

Additional observations from a re-analysis of the deposited data

Results flagged for a closer look

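Within the 4 N-short KD libraries, the 48 hr library stood apart from the other 3 for 3 exons. MSI1 inclusion was 71.25% there, with the next library at 85.19% and the highest at 87.88%. PCBP2 was at 54.07%, with the next at 65.72% and the highest at 67.59%. ZRANB2 was at 67.38%, with the next at 54.57% and the lowest at 53.44%. In each case the gap to the nearest library exceeded Dixon's 95% critical value as a share of the range. The check took no account of library set. For MSI1 and PCBP2 the 48 hr library was also the lowest of the control and of the total KD libraries. Chance flags about 1 in 20 groups, and 64 groups of 4 were looked at.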

How the results depend on the processing

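Counts below are short frame-keeping exons called. In total KD against control (27), DESeq2 gave 12 and limma 3, and leaving out single libraries gave 11 to 29, the lowest being 11 when total KD at 48 hr was omitted, and 18 when control at 96 hr was. In N-short KD (0), a mean of 10 reads, dropping both the read minimum and the limit on pooled inclusion, and the downstream junction alone each gave 1, and leaving out libraries 0 to 1. In N-long KD (10), DESeq2 gave 4, limma 0 and leaving out libraries 6 to 11, with 6 without the 48 hr N-long KD library. In N-long against N-short KD (8), DESeq2 and limma each gave 0 and leaving out libraries 5 to 10, with 5 without the 48 hr N-short or the 96 hr N-long KD library. In 96 against 48 hr (184), dropping both the read minimum and the limit on pooled inclusion gave 118, DESeq2 82, limma 103, and leaving out libraries 136 to 184. With no replicate block the pairing by library set was dropped, and the calls were 29, 0, 7 and 6 in the knockdown comparisons. Among exons named for their rank in mean difference, PTBP1 then lost its call in total KD. APP and the 45 nt form of NF2 lost theirs in N-long KD, and APP and MPRIP in N-long against N-short KD. Between A375 and HEK293 (58), a minimum of 50 reads gave 20, of 10 reads 111, and intervals apart 35. At 50 reads there were 45 between A375 and HUES66 (98) and 37 between HEK293 and HUES66 (97). Between fractions (14) the values were 3 at 50 reads, 36 at 10 reads and 8 with intervals apart. The cause of these shifts was not tested. None of the exons named for their rank in mean difference in the knockdown and time comparisons reversed direction under the alternatives run. Exons named from the gene lists alone, or after their values were seen, were not followed for direction. For cell lines and fractions only counts were recomputed.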
